A study of Homo sapiens with 7 samples.

Results

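Interferon-stimulated genes were examined in UM-UC-3, an established human line from a urothelial (bladder) carcinoma. They were taken from a list of 55 genes known to respond to interferon, by matching the gene symbol in the expression table. This rule uses no measured value, but the list was drawn up with earlier results of these data known. Of the 55, 46 were found among the 13872 genes of the table, and the other 9 (IFI27, IFI44L, MX1, MX2, OAS2, RSAD2, XAF1, CMPK2 and TRIM22) were not analysed here. The groups were 3 clones isolated by ALDEFLUOR sorting for high aldehyde dehydrogenase activity (ALDH-high clones 1, 6 and 10), 3 labelled as clones of low activity (ALDH-low clones 1, 3 and 8), and 1 wild-type culture. Each library is 1 clone of the same line, so n = 3 per group counts clones, the wild type has no replicate, and nothing says that a clone was grown more than once. The labels name no interferon treatment of any culture, and the growth protocol, which gives DMEM with serum, speaks of the ALDH-high clones alone.

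Interferons are secreted proteins that warn cells of viral infection. They bind paired receptors on the cell surface. For interferons of types I and III, the kinases JAK1 and TYK2 then activate a complex that holds STAT2 and IRF9. This complex binds the interferon-stimulated response element (ISRE) in the promoters of target genes. The targets include sensors of foreign RNA, enzymes that degrade or edit RNA, proteins that block viral entry and translation, and the ubiquitin-like protein ISG15. Tumour cells in culture can express many of these genes at a low level without added interferon. In RNA from whole cultures, a change in the number of expressing cells and a change in RNA per cell cannot be told apart.

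Values are CPM as deposited, that is, reads per gene scaled to a common library total and not to gene length. Where a gene has several values in a row, they stand in the order of ALDH-high clones 1, 6 and 10 and ALDH-low clones 1, 3 and 8. Column sums ran from 967084.9 to 1019855.1 CPM. The smallest value above 0 was 0.04 CPM in every library, and a count of 0 allows up to 0.12 CPM if that value is taken as 1 read, for counting error only. Each difference is the ALDH-high mean less the ALDH-low mean of log2(CPM + 1), which compresses the change of genes near 0, with the SE from limma and p adjusted over all 12705 genes tested. A gene is said to have risen or fallen where that adjusted p was below 0.05. Of the keratin and urothelial markers checked, 5 of 20 could be analysed. KRT8 and KRT18, keratins of simple epithelium, were at 56.16 to 391.35 and 142.95 to 582.39 CPM over the 7 libraries, and KRT7 stayed at or under 7.19 CPM. The uroplakins, which define mature urothelium, were not analysed here, nor were any of 12 leukocyte markers.

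Of the 46 genes, 41 reached 1 CPM in 3 or more clones and were tested, and 5 (OASL, IFIH1, BST2, SAMD9L and IFITM1) were below that level. IFI6 rose and TDRD7 fell, and 39 did not pass. Over all tested genes 0.645% rose and 0.693% fell. IFI6 (ENSG00000126709), an interferon-induced membrane protein with antiviral and survival functions, measured 36.96, 65.38 and 41.84 CPM in the ALDH-high clones against 14.52, 7.50 and 12.92 CPM in the ALDH-low clones. All ALDH-high clones were above all ALDH-low clones, and wild type was higher still at 100.11 CPM. The group means were 48.1 ± 15.2 and 11.6 ± 3.68 CPM (SD, n = 3), a ratio of 4.13 and a difference of 1.96 log2 units (SE 0.29, limma adjusted p = 0.0287). IFI6 no longer passed when ALDH-high clone 6 or 10 (adjusted p = 0.0637 and 0.104) or ALDH-low clone 1 or 8 (0.0752 and 0.112) was left out, with differences from 1.70 to 2.13 log2 units over all clones left out.

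TDRD7 (ENSG00000196116), a Tudor-domain protein of RNA granules that is also interferon-induced, went the opposite way. It measured 0.64, 2.05 and 1.32 CPM in the ALDH-high clones against 6.96, 8.09 and 5.0 CPM in the ALDH-low clones, with wild type at 1.96 CPM, inside the ALDH-high range. The means of 1.34 ± 0.705 and 6.68 ± 1.56 CPM differed 5-fold, or by -1.74 log2 units (SE 0.29, limma adjusted p = 0.0377). TDRD7 lost its call with a filter at 5 CPM (adjusted p = 0.0534) and when any 1 of the 6 clones was left out (0.0506 to 0.147).

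Upstream sequences are shown for both genes that passed and for 3 further genes whose ALDH-high clones all lay above the ALDH-low clones (IFIT3, DDX60 and OAS3). LGALS3BP is shown as well, where the order was reversed. These are a choice, since IFI35, HERC6, PARP14, NMI and RNF213 also had groups that did not overlap and a window. Their sequences are not shown, so the match counts of the printed sequences are no comparison of higher and lower genes. Each line gives the 170 bases before the RefSeq transcription start in build GRCh38.p14, 5′ to 3′ on the gene's strand, and capitals mark matches to the ISRE core (GAAA, any 2 bases, GAAA, on either strand). The windows are chr1:27672193-27672362 (minus strand) for IFI6, chr10:89327827-89327996 (plus) for IFIT3, chr4:168318753-168318922 (minus) for DDX60, chr12:112938304-112938473 (plus) for OAS3, chr17:78979924-78980093 (minus) for LGALS3BP and chr9:97411926-97412095 (plus) for TDRD7.
IFI6: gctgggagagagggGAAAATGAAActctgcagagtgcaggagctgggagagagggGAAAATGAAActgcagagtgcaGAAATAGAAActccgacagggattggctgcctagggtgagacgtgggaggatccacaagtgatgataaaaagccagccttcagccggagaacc
IFIT3: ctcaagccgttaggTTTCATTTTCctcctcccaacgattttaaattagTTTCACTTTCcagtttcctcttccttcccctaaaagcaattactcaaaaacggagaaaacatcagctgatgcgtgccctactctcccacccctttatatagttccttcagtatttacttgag
DDX60: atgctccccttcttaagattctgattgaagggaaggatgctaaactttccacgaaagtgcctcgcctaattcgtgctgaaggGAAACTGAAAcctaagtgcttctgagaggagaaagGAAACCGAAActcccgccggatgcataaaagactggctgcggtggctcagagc
OAS3: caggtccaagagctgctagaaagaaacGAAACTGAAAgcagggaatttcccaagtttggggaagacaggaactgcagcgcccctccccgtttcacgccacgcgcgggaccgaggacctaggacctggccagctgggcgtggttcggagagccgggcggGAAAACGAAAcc
LGALS3BP: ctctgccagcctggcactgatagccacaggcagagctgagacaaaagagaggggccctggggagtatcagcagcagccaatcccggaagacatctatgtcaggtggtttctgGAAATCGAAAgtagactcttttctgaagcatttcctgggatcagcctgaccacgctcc
TDRD7: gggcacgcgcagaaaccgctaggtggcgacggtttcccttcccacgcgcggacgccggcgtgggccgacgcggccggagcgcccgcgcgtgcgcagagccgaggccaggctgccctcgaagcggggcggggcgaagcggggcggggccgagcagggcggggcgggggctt

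IFI6 carried 3 matches, all on its own strand, IFIT3, DDX60 and OAS3 had 2 each, LGALS3BP had 1, and the TDRD7 window had 0. IFIT3 had 2 RefSeq starts, and the sequence of 1 is shown. The window of the other start held further matches at chr10:89332435-89332444 and chr10:89332478-89332487. In IFI6 the first 2 matches have the same 10 letters. RefSeq windows (250 bases before to 50 after a start) were found for 40 of the 46 genes, DDX58 under its current symbol RIGI, and 24 of the 40 (60%) held an ISRE core on either strand. The same was true of 4.38% of all 27305 gene symbols and of 3.57% of all 35116 windows. Of the genes with a window, 5 of 7 whose ALDH-high clones were all higher held the core, 2 of 4 whose ALDH-high clones were all lower, and 14 of 25 whose groups overlapped. Among the genes whose sequence is not shown, PARP14 (higher) and NMI (lower) held the core, and IFI35 and HERC6 (higher) and RNF213 (lower) did not. The gamma-activated sequence (TTC, any 3 bases, GAA), another element of interferon-responsive promoters, which reads the same on both strands, was in 11 of 40 (27.5%) against 9.38% of all symbols. IRF1, IRF9, OAS1, IFI35 and SP110 held that sequence and no ISRE core. PARP9 and DTX3L, which are transcribed in opposite directions from neighbouring starts, share 1 match at chr3:122564332-122564341. A match is a description of letters in these windows and was not tied to binding. IFIT2, IRF7, USP18, OASL, IFITM2 and PARP10 had no window.

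**Figure D1:**
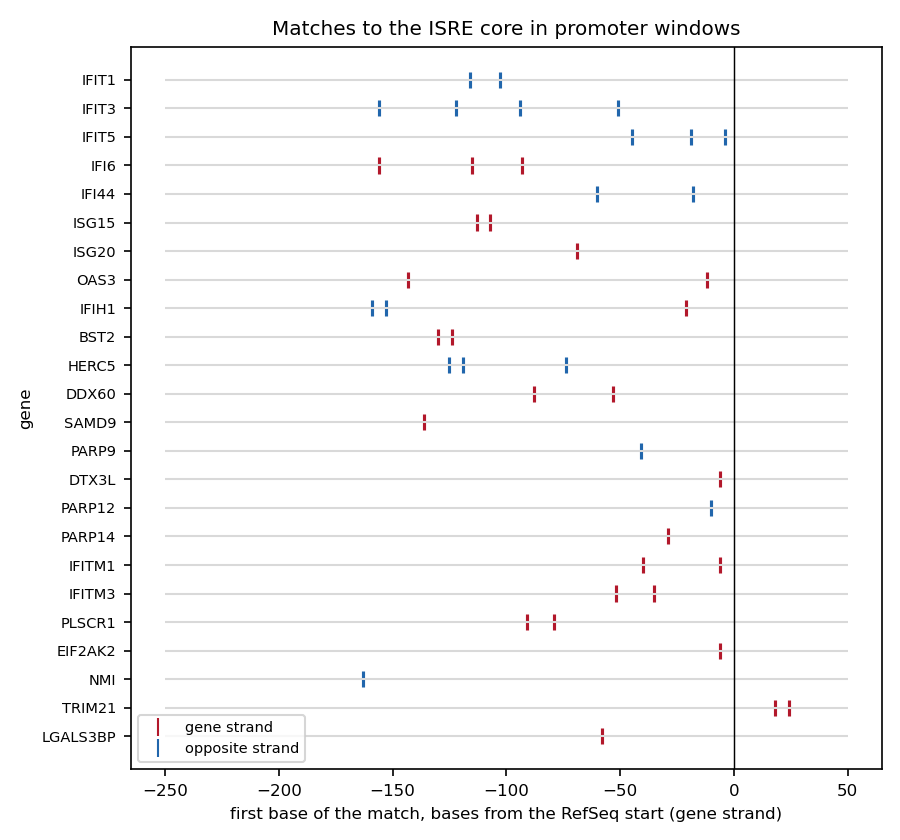
Positions of ISRE core matches (ticks) in the RefSeq windows of the 24 genes that held one, as bases from the transcription start on the x axis, with 1 gene per row and the colour giving the strand. Genes with several RefSeq starts have the ticks of all their windows in 1 row, so that 1 site of IFI44 and 1 of PLSCR1 appear at 2 distances, and matches that overlap count separately. All matches but those of TRIM21 begin before the start.

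Beyond the 2 genes that passed, the ALDH-high and ALDH-low values did not overlap in 15 of the 41 tested genes, IFI6 and TDRD7 included. The ALDH-high clones were all higher in 11 (26.8%), against 14.0% of all tested genes, and all lower in 4 (9.76%), against 12.1%. Before adjustment, 12 genes had p under 0.05 with a higher ALDH-high mean (29.3%, against 10.4% of all tested genes) and 4 with a lower one (9.76%, against 9.31%). The difference was above 0 in 29 of 41 genes and below 0 in 12. The median difference was 0.27 log2 units, beside 0.00 over all tested genes. These values changed with the level of expression required and with 1 clone. With a filter at 5 CPM, 28 genes were left. Of these, 4 had all ALDH-high clones higher (14.0% of all genes so filtered) and 4 all lower (12.5%). The difference was then above 0 in 16 of the 28, and the median was 0.08. Without ALDH-high clone 6 the median was 0.12, with 11 genes higher (18.2% of all tested genes) and 6 lower (17.0%). An exact test of 1 gene in 3 against 3 clones cannot go below p = 0.1, so calls rest on limma's variance estimate.

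**Figure D2:**
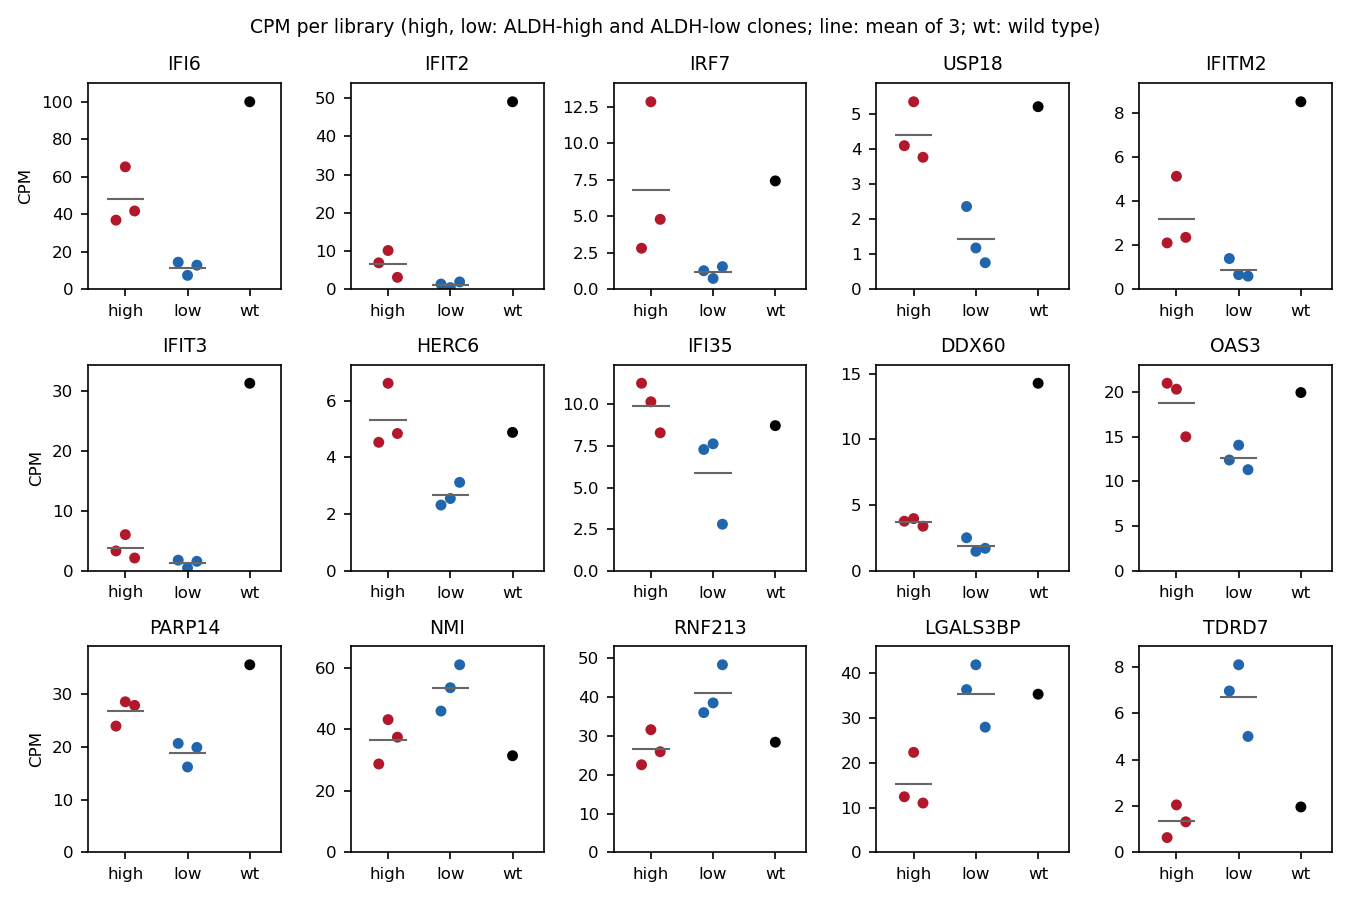
CPM in each library (y axis, starting at 0, a separate scale per gene) for the 15 genes whose ALDH-high (red) and ALDH-low (blue) clones do not overlap, with lines at the group means and wild type in black. In 11 panels the red points are all above the blue ones, and wild type is above every clone in 6 of these 11. In NMI, RNF213, LGALS3BP and TDRD7 the order is turned around.

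The sensors come first in the pathway. DDX58 encodes RIG-I, which recognises viral RNA ends, and was at 9.10, 10.67 and 8.16 CPM in ALDH-high and 12.28, 2.67 and 9.76 CPM in ALDH-low clones. The groups overlapped, with ALDH-low clone 3 far below the other libraries, and the difference of 0.35 log2 units (SE 0.45, adjusted p = 0.707) turned to -0.22 without that clone. DDX60, a helicase linked to RIG-I signalling, was at 3.78, 3.98 and 3.40 against 2.52, 1.49 and 1.72 CPM. Its groups did not overlap, but the difference of 0.71 log2 units (SE 0.22) did not pass (adjusted p = 0.141). IFIH1, the sensor MDA5, stayed at or under 0.36 CPM in all clones and was not tested.

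Among the transcription factors, IRF7, the master regulator of type I interferon genes, had the largest difference. It was at 2.82, 12.85 and 4.8 CPM in ALDH-high and 1.28, 0.75 and 1.56 CPM in ALDH-low clones, which do not overlap. The means of 6.82 ± 5.31 and 1.20 ± 0.411 CPM gave 1.64 log2 units (SE 0.44, adjusted p = 0.11), and 1.12 without ALDH-high clone 6, which holds the top value. The 3 other factors overlapped between groups. IRF1, a factor shared with interferon-gamma responses, had means of 12.3 and 9.29 CPM with its highest value, 18.88 CPM, in ALDH-high clone 6. IRF9, the DNA-binding partner of STAT2, was also highest of the clones in ALDH-high clone 6, at 9.69 CPM, and lowest in ALDH-low clone 8, at 0.92 CPM. STAT2 had means of 8.30 and 8.16 CPM.

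The IFIT proteins bind foreign RNA and block its translation. IFIT2 was at 6.95, 10.18 and 3.16 against 1.40, 0.47 and 1.96 CPM, and IFIT3, its partner, at 3.34, 6.07 and 2.16 against 1.80, 0.51 and 1.60 CPM. Neither gene's groups overlapped, and the differences of 1.72 (SE 0.41, adjusted p = 0.0865) and 1.05 log2 units (SE 0.36, adjusted p = 0.174) did not pass. IFIT1 was at 4.13, 4.31 and 1.68 against 1.48, 0.47 and 2.04 CPM, where ALDH-high clone 10 lay between 2 ALDH-low clones (0.91 log2 units, SE 0.37, adjusted p = 0.226). All 3 were lowest in ALDH-low clone 3. IFIT5, the fourth family member, was at 9.18 ± 1.26 and 8.54 ± 2.44 CPM, and the highest clone was ALDH-low clone 3 at 11.23 CPM.

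The oligoadenylate synthetases make the second messenger that activates RNase L. OAS3 was at 20.98, 20.32 and 15 against 12.40, 14.06 and 11.32 CPM, without overlap (0.53 log2 units, SE 0.20, adjusted p = 0.193). OAS1 had means of 1.92 ± 1.04 and 0.74 ± 0.408 CPM with overlap, and OASL, a family member that makes no messenger, was at 0.79, 2.42 and 0.56 against 0.28, 0.24 and 0.56 CPM. ISG20, an exonuclease that degrades single-stranded RNA, had 17.21 to 25.28 CPM in ALDH-high clones and 4.64 to 20.78 CPM in ALDH-low clones. In OAS1, OASL and ISG20 ALDH-high clone 6 held the highest clone value. EIF2AK2, the kinase PKR, and ADAR, which edits double-stranded RNA, were at 56.4 ± 5.67 and 52.5 ± 7.20 CPM and at 62.8 ± 7.77 and 70.0 ± 3.37 CPM, with overlap (0.11 and -0.16 log2 units, adjusted p = 0.754 and 0.587).

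In the ISG15 system the genes did not share 1 pattern. ISG15, the ubiquitin-like modifier, was at 27.90, 40.51 and 26.44 against 38.20, 21.21 and 33.48 CPM, with the groups interleaved (0.04 log2 units, SE 0.26, adjusted p = 0.941), and the difference was -0.14 without ALDH-high clone 6 and -0.20 without ALDH-low clone 3. USP18, which removes ISG15 and restrains receptor signalling, was at 4.09, 5.34 and 3.76 against 2.36, 1.18 and 0.76 CPM. Its groups did not overlap, with 1.19 log2 units (SE 0.28, adjusted p = 0.0872). HERC5, the ligase that attaches ISG15 in human cells, had means of 7.51 and 6.82 CPM with overlap. Its relative HERC6 was at 4.53, 6.61 and 4.84 against 2.32, 2.55 and 3.12 CPM without overlap, 0.78 log2 units (SE 0.22, adjusted p = 0.117). UBE2L6, the conjugating enzyme for ISG15, had a lower mean in ALDH-high clones, 10.0 ± 3.37 against 13.8 ± 1.32 CPM, and TRIM25, a ligase that acts on RIG-I, had 29.8 ± 5.80 against 25.6 ± 0.827 CPM, and both overlapped.

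The IFITM proteins hold back viral fusion at membranes, and their near-identical sequences leave the division of reads among them uncertain. IFITM3 was at 187.08, 194.13 and 137.68 against 139.40, 105.08 and 123.60 CPM, where ALDH-high clone 10 lay just under ALDH-low clone 1 (0.49 log2 units, SE 0.18, adjusted p = 0.198). IFITM2 was at 2.11, 5.13 and 2.36 against 1.40, 0.67 and 0.60 CPM, without overlap (1.11 log2 units, SE 0.32, adjusted p = 0.122). IFITM1, below the filter, had 0, 1.97 and 1.88 CPM in the ALDH-high clones against 0.04, 0 and 0 CPM in the ALDH-low clones. In IFITM1, ALDH-high clone 1 was thus as low as the ALDH-low clones. BST2, or tetherin, which holds budding virus on the cell, reached 1.23 CPM in ALDH-high clone 6 and was at or under 0.48 CPM in the other clones.

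The PARP genes of the list encode ADP-ribosyltransferases, and DTX3L is the ligase partner of PARP9. PARP14 was at 23.92, 28.52 and 27.84 against 20.64, 16.18 and 19.88 CPM, without overlap (0.48 log2 units, SE 0.17, adjusted p = 0.179). PARP9, PARP10 and PARP12 overlapped, with means of 2.87 and 2.08, 2.70 and 2.17, and 17.6 and 12.6 CPM. DTX3L was at 19.3 ± 2.58 and 21.2 ± 3.01 CPM, with overlap, and neither it nor PARP9 passed (adjusted p = 0.745 and 0.639).

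Besides TDRD7, 3 genes were lower in all ALDH-high clones. LGALS3BP, a secreted glycoprotein that binds galectins, was at 12.44, 22.37 and 11.04 against 36.40, 41.95 and 28.00 CPM, without overlap (-1.21 log2 units, SE 0.28, adjusted p = 0.0812). RNF213, a very large ATPase and ubiquitin ligase, was at 22.57, 31.60 and 25.92 against 36.00, 38.50 and 48.32 CPM (-0.60 log2 units, SE 0.19, adjusted p = 0.145). NMI, an adaptor that binds IFI35, was at 28.73, 43.14 and 37.44 against 45.92, 53.50 and 60.96 CPM (-0.55 log2 units, SE 0.19, adjusted p = 0.177). In all 3 the groups were apart and none passed. IFI35, the binding partner of NMI, had the opposite order, at 11.25, 10.14 and 8.28 against 7.28, 7.62 and 2.80 CPM (0.74 log2 units, SE 0.33, adjusted p = 0.268), with ALDH-low clone 8 far below the rest.

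Single clones set several of the remaining values. IFI16, a nuclear DNA sensor, was at 44.63 CPM in ALDH-low clone 3 and at 10.00 to 19.90 CPM in the 6 other libraries, and its difference of -0.52 log2 units (SE 0.45, adjusted p = 0.564) was 0.02 without that clone. IFI44, a cytoplasmic protein of unsettled function, was at 8.66, 8.25 and 3.84 against 1.0, 7.66 and 2.40 CPM. SP100 and SP110, proteins of nuclear bodies, had means of 22.5 and 25.3 and of 2.86 and 2.60 CPM. TRIM21, a cytosolic antibody receptor, and PLSCR1, a membrane-associated scramblase, had 8.66 and 8.85 and 28.6 and 31.7 CPM. SAMD9, a restriction factor of poxviruses, was at 5.23 ± 2.26 and 7.38 ± 2.12 CPM, and its neighbour and paralog SAMD9L stayed at or under 0.45 CPM in the clones. None of these genes passed, and the groups overlapped in each of the 7 that were tested.

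**Figure D3:**
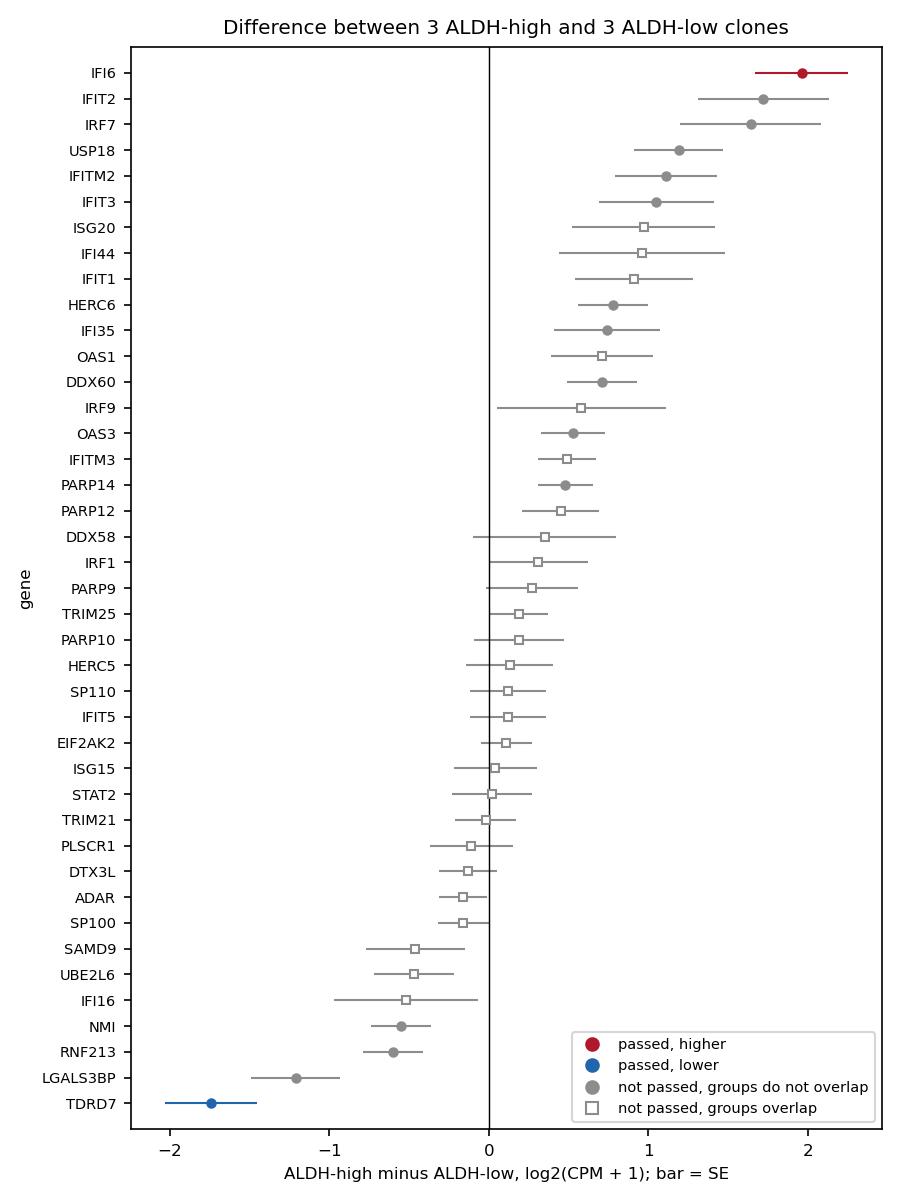
Difference between ALDH-high and ALDH-low clones (x axis, log2(CPM + 1), bars are the SE from limma, n = 3 clones per group) for the 41 tested genes, 1 per row. IFI6 at 1.96 and TDRD7 at -1.74 are the 2 that passed, filled grey points are genes whose groups do not overlap, and open squares are genes whose groups do.

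The ALDH-high clones were not alike. Clone 6 held the highest value of the 6 clones in 20 of the 41 tested genes, where it did so in 15.4% of all tested genes, and the lowest in 0. Clone 10 was highest in 0 (12.7% of all tested genes) and lowest in 10 (15.5%). Within the 3 ALDH-high clones, clone 6 was highest in 30 genes, clone 1 in 11 and clone 10 in 0, against 32.9%, 41.8% and 25.5% of all tested genes. Of the 11 genes with all ALDH-high clones higher, clone 6 led in 9. Relative to the mean of the 6 clones, the median gene of the list stood at 0.36 log2 units in ALDH-high clone 6, 0.11 in clone 1 and -0.10 in clone 10, and at -0.11, -0.05 and -0.12 in ALDH-low clones 1, 3 and 8. The same median over all tested genes lay between -0.03 and 0.04 in every clone. With 1 library per clone, none of these differences between clones has a test.

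**Figure D4:**
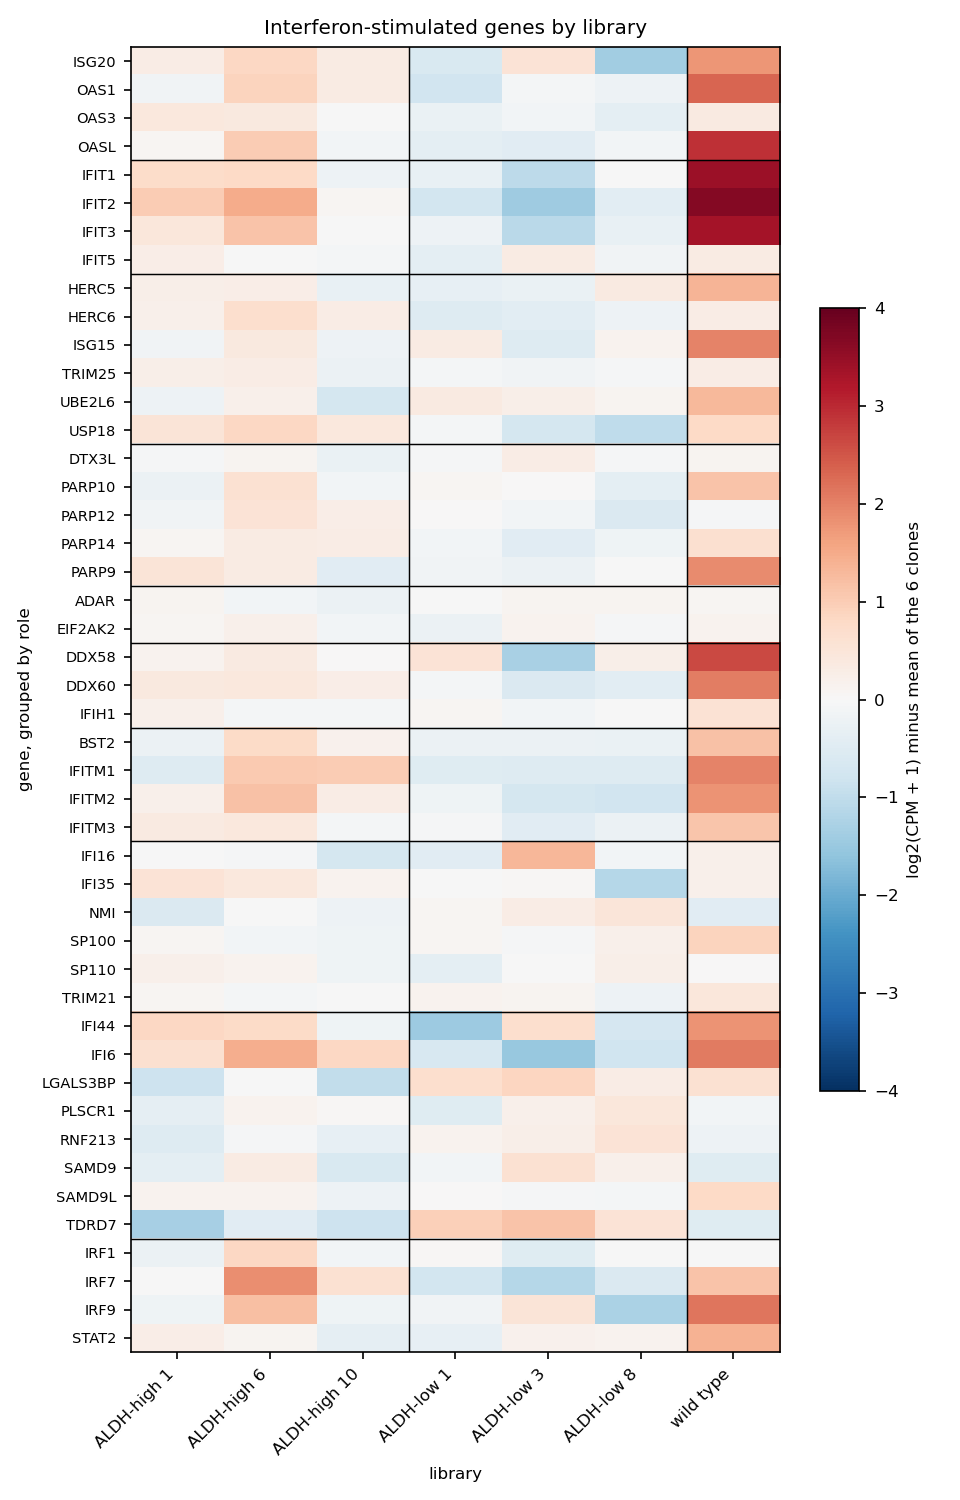
log2(CPM + 1) minus the mean of the 6 clones (colour) for the 46 genes (rows, separated by role) in the 7 libraries (columns). The wild-type column is the reddest, ALDH-high clone 6 comes next, and IFIT1, IFIT2 and IFIT3 are lowest in ALDH-low clone 3.

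Wild type had higher values than any clone for much of the list. It was above all 6 clones in 28 of 46 genes (60.9%), against 23.8% of all 13872 listed genes, and below all 6 in 0, against 24.1%. It was at least 2 times the highest clone, and at least 1 CPM, in 14 genes (30.4%), against 2.92%. The median of wild type minus the clone mean was 0.85 log2 units over the list and -0.02 over all listed genes. With 1 wild-type library this has no replicate check, and culture, library and the cloning itself cannot be told apart.

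IFIT1 was at 31.45 CPM in wild type, 7.3 times the highest clone, and IFIT3 at 31.37 CPM, 5.17 times the highest. IFIT2 reached 49.08 CPM, 4.82 times the highest clone, while IFIT5 at 11.31 CPM was level with its highest clone. OASL at 11.87 CPM was 4.9 times and OAS1 at 10.07 CPM 3.31 times the highest clone, but OAS3 at 19.94 CPM lay within the clones. The sensor genes followed, with DDX58 at 55.27 CPM (4.5 times) and DDX60 at 14.27 CPM (3.59 times). ISG15, which did not separate the ALDH groups, was at 124.61 CPM, 3.08 times the highest clone.

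PARP9 at 11.59 CPM was 3.01 times its highest clone, and its partner DTX3L at 21.54 CPM lay within the clones. The transcription factors STAT2 and IRF9 were at 23.10 and 19.18 CPM, 2.3 and 1.98 times the highest clone, whereas IRF1 and IRF7 at 10.27 and 7.43 CPM lay within. HERC5, IFI44, IFITM1 and SAMD9L complete the 14 genes, at 19.54, 17.94, 4.64 and 1.24 CPM. IFI6 and IFITM3 were at 1.53 and 1.6 times the highest clone, and the CPM of ADAR, EIF2AK2, NMI and RNF213 lay within the clones. Among the 11 genes with all ALDH-high clones above the ALDH-low clones, wild type was nearer to the ALDH-high mean in all 11, against 56.9% of the 1781 such genes overall. In 6 of the 11 wild type was above every clone, which by itself puts it nearer to the higher group. Of the 4 with the opposite order it was nearer to the ALDH-high mean in 3, against 62.9% of 1533, and LGALS3BP was the exception at 35.37 CPM. Some epithelial markers differed as well. KRT8 was at 391.35 CPM in wild type and at or under 168.33 CPM in the clones. Wild type was above all clones in 3 of the 5 markers analysed (KRT8, KRT7 and FOXA1), against 23.8% of all listed genes. KRT18, at 351.98 CPM in wild type, and PPARG, at 2.76 CPM, lay within the clones. The part of these markers in the values above was not tested.

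**Figure D5:**
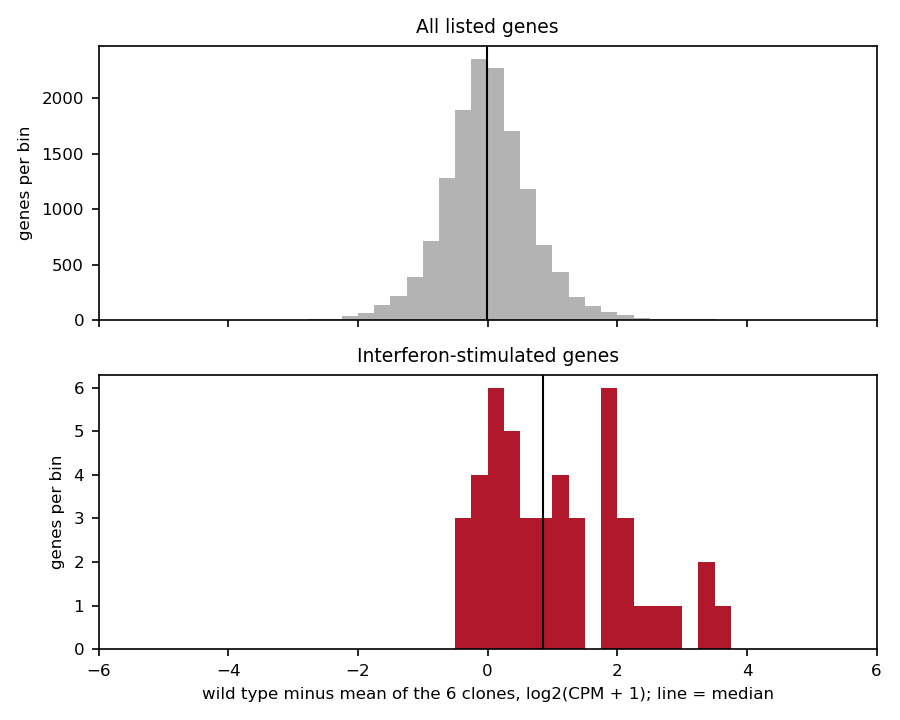
Wild type minus the mean of the 6 clones on log2(CPM + 1) (x axis) for all 13872 listed genes (upper panel) and the 46 interferon-stimulated genes (lower panel), as genes per bin, with values past the ends of the axis in the last bins and a line at each median. The line is at -0.02 above and at 0.85 below.

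Genes upstream of these targets were counted in the same fit. None of 13 interferon gene symbols was analysed here. Of 5 receptor genes tested 0 rose and 1 fell, against 0.645% and 0.693% of all tested genes. The difference was below 0 in all 5, where it was above 0 in 50.4% of all tested genes. IL10RB, a subunit shared by interleukin-10 and type III interferon receptors, fell, with 6.04, 5.58 and 4.8 CPM in the ALDH-high against 12.08, 12.49 and 11.08 CPM in the ALDH-low clones (-1.0 log2 units, limma adjusted p = 0.048). IL10RB did not pass after any 1 clone was dropped (adjusted p = 0.0602 to 0.183) and also under quantile normalization, a pseudocount of 5, a filter at 5 CPM and no filter (0.0501 to 0.0577). The type I receptor subunits IFNAR1 and IFNAR2 were at 42.80 to 72.24 and 15.93 to 25.48 CPM over the clones, with differences of -0.23 and -0.05 log2 units (adjusted p = 0.568 and 0.92). The interferon-gamma receptor subunits IFNGR1 and IFNGR2 differed by -0.47 and -0.62 log2 units (adjusted p = 0.354 and 0.171).

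Of 9 tested transducers limma passed 0, where 0.645% of all tested genes rose and 0.693% fell. At an unadjusted p under 0.05, 0 were higher and 1 lower, against 10.4% and 9.31% of all tested genes. That 1 was STAT3, at 31.83, 32.14 and 30.44 against 60.32, 33.15 and 52.96 CPM (-0.57 log2 units, adjusted p = 0.21). JAK1, JAK2 and TYK2 differed by 0.02, -0.03 and -0.23 log2 units, and IRF2, IRF3, IRF2BP1 and IRF2BP2 by -0.14, 0.26, -0.22 and 0.15, with adjusted p from 0.441 to 0.962 over these 7. IRF5 was below the filter. Of 18 genes of nucleic acid sensing and relay 0 rose and 1 fell, against 0.645% and 0.693% of all tested genes. The 1 that fell was TANK, an adaptor of the kinase TBK1, at 14.50, 9.56 and 9.16 against 22.68, 28.79 and 26.52 CPM (-1.18 log2 units, limma adjusted p = 0.0475). TANK kept its call without ALDH-high clone 1 (adjusted p = 0.0329) and lost it without any 1 of the 5 others (0.0916 to 0.174) and in 5 other settings (0.0524 to 0.0591). MAVS, the mitochondrial adaptor of RIG-I, was at 31.47, 35.83 and 26.48 against 41.52, 55.15 and 45.60 CPM (-0.59 log2 units, adjusted p = 0.137). Among these 18, 2 were higher and 3 lower at an unadjusted p under 0.05, against 10.4% and 9.31% of all tested genes. The 2 higher were TBK1 and AZI2 (0.57 and 0.50 log2 units, limma adjusted p = 0.221 and 0.209). The difference was above 0 in 9 of the 18 and below 0 in 9. Of 10 negative regulators limma passed 0, against the same 0.645% and 0.693%. At an unadjusted p under 0.05, 0 were higher and 1 lower, against the same 10.4% and 9.31%. The 1 lower was PTPN1, a tyrosine phosphatase that acts on JAK kinases (-0.71 log2 units, adjusted p = 0.0777).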

How the data were processed

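RNA of 3 ALDH-high clones, 3 ALDH-low clones and 1 wild-type culture was sequenced. The authors deposited 1 table of CPM per gene, rounded to 2 decimals, with column names that end in the name of CAGEr. Per the submitters' processing notes BWA 0.5.9 was used, and the builds hg19 and mm9 are named without roles. The counting method, strand use and low-value filter are not given in the sources used here, and no gene had a maximum under 0.52 CPM. Depth is unknown, since CPM steps gave whole reads too rarely in 2 of the 7 columns, and count-based tests were therefore not run.

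The 12705 of 13872 genes that reached 1 CPM in 3 or more of the 6 clones entered the test. Their log2(CPM + 1) values were compared by limma (version 3.58.1, R 4.3.3; two-sided, eBayes with a variance trend), with Benjamini-Hochberg adjustment over all of them and a threshold of 0.05. P-values set the group difference against the spread between libraries within a group, with variances moderated over all tested genes. With 1 library per clone, that spread holds clone, culture and library together. The fit was tested on simulated data with independent genes and changes larger than any found on the list. That simulation is therefore no check of the calls made here. No listed interferon-stimulated gene shares all 7 values with another gene.

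The 55 genes and the pathway lists were drawn up from known interferon biology, but with earlier results of these data known. Given in every library are genes that passed, genes whose groups do not overlap, the 5 with the highest mean CPM, the 3 with wild type farthest above the clones (and below, where there was none) and the 3 with 1 clone farthest from the other libraries. Of the pathway lists, genes that passed and all receptors and transducers are named, except 1 transducer that is not reported here. MAVS, TBK1, AZI2, PTPN1 and, among the further targets, LY6E, NUB1, ELF1, PML, HELZ2, B2M and TAP2 were picked after their values were seen. Each clone was left out in turn. Other alternatives used all 7 libraries, 1 gene per set of identical values, robust or trend-free eBayes, quantile or median-ratio rescaling, a pseudocount of 0.1 or 5, and a low-value filter that was absent or raised to 5 CPM. Promoter windows came from RefSeq on GRCh38.p14, and no coordinates of the deposited table were used.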

Additional observations from a re-analysis of the deposited data

How the results depend on the processing

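Signs were compared over the 16 alternatives for 24 tested genes, those chosen by the rules above together with TANK and IL10RB. In 21 of the 24 the sign was the same in every alternative in which the gene was tested. The exceptions among the 24 came from leaving out 1 clone. ISG15 then ranged from -0.20 to 0.21 log2 units, DDX58 from -0.22 to 0.71 and IFI16 from -0.86 to 0.02. Other genes of the list changed sign as well. Of the 41 tested, 29 had a difference above 0 in the main fit, 26 without ALDH-high clone 6 and 27 without ALDH-low clone 1. With a filter at 5 CPM, 0 members of the list fell, and 43 of all genes rose and 43 fell. All ALDH-high clones were then higher in 4 members and lower in 4, and the median member difference was 0.075 log2 units (28 genes left). Leaving out 1 clone gave 0 to 1 members that rose, 0 that fell, and 20 to 93 of all genes that rose and 14 to 80 that fell. The median member difference then ranged from 0.115 to 0.429 and stayed above 0. Fewer samples and, under the filter, fewer genes were tested; otherwise the cause was not tested. Both scalings kept the calls of IFI6 and TDRD7. Planned edgeR and DESeq2 fits were not run because reads were not recovered for all columns. No paired analysis was possible because the groups share only the clone number 1, which names separate clones. OASL, IFIH1, BST2, SAMD9L and IFITM1 reached 1 CPM in fewer than 3 clones and were tested only where no filter was used.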

Other observations

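Further interferon targets outside the list were counted in the same fit. Of 45 tested genes known as targets of type I interferon, limma passed 0, where 0.645% of all tested genes rose and 0.693% fell. The median difference of the 45 was 0.06 log2 units. At an unadjusted p under 0.05, 2 were higher and 4 lower, against 10.4% and 9.31% of all tested genes. All ALDH-high clones were higher in 5 genes and all lower in 4, against 14.0% and 12.1% of all tested genes. LY6E, a membrane protein that affects viral entry, was at 210.01, 182.35 and 192.64 CPM in the ALDH-high and 112.44, 169.74 and 110.36 CPM in ALDH-low clones (0.60 log2 units, limma adjusted p = 0.148). NUB1, which steers ubiquitin-like proteins to the proteasome, was at 118.38, 136.47 and 120.32 against 85.60, 87.60 and 72.76 CPM (0.60 log2 units, adjusted p = 0.0831). ELF1, an ETS-family transcription factor, had the opposite order, at 4.45, 5.83 and 4.60 against 9.04, 16.11 and 9.88 CPM (-1.05 log2 units, adjusted p = 0.0877). PML, the organiser of nuclear bodies, was also lower in all ALDH-high clones, at 8.98, 5.91 and 6.64 against 12.28, 12.26 and 12.28 CPM (-0.72 log2 units, adjusted p = 0.117). Wild type was above all clones in 24 of the 47 genes analysed and below all in 6, against 23.8% and 24.1% of all listed genes. HELZ2, a helicase-type coactivator, was at 36.89 CPM in wild type and at 6.68 to 9.78 CPM in the clones.

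Interferon-gamma response and antigen presentation had 22 tested table entries. Of these limma passed 0, where 0.645% of all tested genes rose and 0.693% fell. The entries are 21 genes because TAP2 is entered 2 times with the same values. At an unadjusted p under 0.05, 0 were higher and 1 lower (B2M, -0.58 log2 units, adjusted p = 0.114), against 10.4% and 9.31% of all tested genes. In 0 of the 22 were all ALDH-high clones higher, and in 4 all were lower, against the same 14.0% and 12.1%. Wild type was above all clones in 13 of the 24 entries analysed and below all in 2, against 23.8% and 24.1% of all listed genes, and both entries below are TAP2.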
